A study of Mus musculus with 3 samples.

Results

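Chemokines and their receptors formed a family of 57 genes among the 24346 genes of the deposited table. They were taken by symbol: every Ccl, Cxcl, Ccr and Cxcr gene with a number, plus the atypical receptors Ackr1 to Ackr4. The family held 24 CC ligands, 13 CXC ligands, 10 CC receptors, 6 CXC receptors and 4 atypical receptors. The tissue was mouse epididymis, taken as initial segment with caput, the proximal stretch of the duct in which sperm begin to mature. All 3 libraries, named here replicates 1, 2 and 3, carried the genotype Ovch2-/-, came from mice 14 weeks old and had no treatment. Ovch2 encodes a secreted serine protease of the initial segment. Control libraries were not analysed here, so the values describe knockout tissue alone, and with 1 group there was no test between groups. Nothing in the labels ties a library to an animal of its own, and the SDs below may be technical.

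Chemokines are small secreted proteins that guide migrating cells through G protein-coupled receptors. Homeostatic chemokines are made constantly and place cells within tissues, whereas inflammatory chemokines are induced by infection or injury and draw leukocytes in. Atypical receptors bind chemokines without G protein signalling and remove or move them, which shapes the gradients. In the epididymis, mononuclear phagocytes lie around and within the duct epithelium, beside sperm that carry antigens the immune system meets only after puberty.

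The libraries did not all match their tissue label equally well, and replicate 1 stood apart. The summed level of 8 initial segment markers was 186, 26433 and 26849 FPKM in replicates 1, 2 and 3, led by Lcn8 and Cst11. FPKM, a fragment count scaled by transcript length and library size, is a level per length, so genes can be set side by side. The 5 germ cell markers, led by Prm2 and Prm1, summed to 0.301, 159 and 219 FPKM, with Prm1, Prm2, Tnp2 and Odf1 listed at 0 in replicate 1. Of the 5 principal cell markers, 4 were lowest in replicate 1, among them Gpx5 at 25918, 35882 and 32210.3 FPKM, while Lcn5 was highest there at 21673, 4289.8 and 13581 FPKM. Ovch2 itself was read at 4.50, 80.2 and 77.2 FPKM. The deleted exons were not given in the sources used here, so this RNA is no check of the genotype. Low values came in whole steps, and 1 fragment on a transcript of 1 kb was worth about 0.0707, 0.0862 and 0.0987 FPKM in replicates 1, 2 and 3, estimated from 67 genes with a single transcript.

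The cysteine spacing that divides the ligands was looked up in the coding sequence. For each ligand only the spacing of its named class was searched, from residue 21 on. A cysteine pair split by a single codon was found in all 13 CXC ligands, and an adjacent pair in all 23 CC ligands with a coding transcript. The other spacing was not searched, so these counts are no test of the classes. The lines below run 5′ to 3′ on the coding strand and were taken from GENCODE vM21 transcripts (GRCm38). Capitals mark the codons of the first such pair. They show the abundant CXC ligands Cxcl12 (chr6:117171496-117171525, plus strand) and Cxcl16 (chr11:70459118-70459147, minus strand), then Cxcl14 on chromosome 13, whose line crosses an exon junction. Cxcl1 (chr5:90891484-90891513, plus strand) and Cxcl2 (chr5:90904130-90904159, plus strand) follow. In these, codons for glutamate, leucine and arginine, the ELR motif of neutrophil-attracting chemokines, stand directly before the first capital.
Cxcl12: ctgagctaccgaTGCcccTGCcggttcttc
Cxcl14: gacgggtccaagTGTaagTGTtcccggaag
Cxcl16: gtcgctggaagtTGTtctTGTgatcgtacc
Cxcl1: aatgagctgcgcTGTcagTGCctgcagacc
Cxcl2: agtgaactgcgcTGTcaaTGCctgaagacc

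ELR codons preceded the cysteine pair in 5 of the 13 CXC ligands, namely Cxcl1, Cxcl2, Cxcl3, Cxcl5 and Cxcl15. None of these 5 reached a mean of 1 FPKM, the level called detected here. Of the 8 CXC ligands without ELR codons, 4 were detected: Cxcl12, Cxcl14, Cxcl16 and Cxcl10. That share is near the 53.7% of all genes in the table, and Cxcl10 had a mean of 0.969 FPKM without replicate 2. A link between ELR codons and level was not tested.

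The CC ligands Ccl27a (chr4:41769936-41769962, minus strand), Ccl21a (chr4:42773726-42773752, minus strand) and their near-identical copies Ccl27b (chr4:42655513-42655539, plus strand) and Ccl21b (chr4:42255933-42255959, plus strand) are shown because their reads are hard to assign.
Ccl27a: tccagcactagcTGCTGTactcagctc
Ccl27b: tccagcactagcTGCTGTactcagctc
Ccl21a: gggggtcaggacTGCTGCcttaagtac
Ccl21b: gggggacaggacTGCTGCcttaagtac

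Over these 27 bases the Ccl27 lines did not differ and the Ccl21 lines differed at 1 base. Of all 50-base stretches in the transcripts of Ccl21a, 71.6% also occurred in transcripts of other genes, against 52.0% for Ccl19 and 45.0% for Ccl27a. Of the genes sharing stretches with Ccl21a or Ccl27a, those in the table were Ccl21b, Ccl27b, Gm13304, Gm13306, Gm20878 and Gm21586. They were listed at 0 in all libraries, as was the copy Ccl21c, which had no GENCODE transcript to compare. None of the genes sharing stretches with Ccl19 was in the table. How reads in the shared stretches were assigned was not given in the sources used here. The levels of Ccl27a, Ccl19 and Ccl21a are uncertain for that reason. Cxcl12, Cxcl14, Cxcl16, Ackr3, Ackr4 and Ccl8 shared no such stretch.

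Within the 57 members, a few homeostatic ligands carried most of the ligand RNA. The atypical Ackr3 and Ackr4 were the receptors of highest level in the family, and each of its classical receptors was low. The chemokine Cx3cl1 and its receptor Cx3cr1 lie outside the 57 and are not covered by these statements. Of the 57 members, 15 (26.3%) had a mean of at least 1 FPKM, against 53.7% of all genes in the table. Detection was uneven across roles, with 9 of 24 CC ligands, 4 of 13 CXC ligands and 2 of 4 atypical receptors, but 0 of 10 CC receptors and 0 of 6 CXC receptors. With replicate 1 left out, the CC receptor Ccr2 also reached the mean of 1 FPKM. At or above 1 FPKM stood 12 members in replicate 1, 14 in replicate 2 and 16 in replicate 3, against 52.7%, 53.4% and 53.4% of all genes. In every library 12 members did, against 49.9% of all genes. Another 21 members were below the mean of 1 FPKM yet nonzero in every library, 13 were listed at 0 in some libraries, and 8 were listed at 0 in all. A listed 0 can be a failed estimate and is not read as absence.

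**Figure D1:**
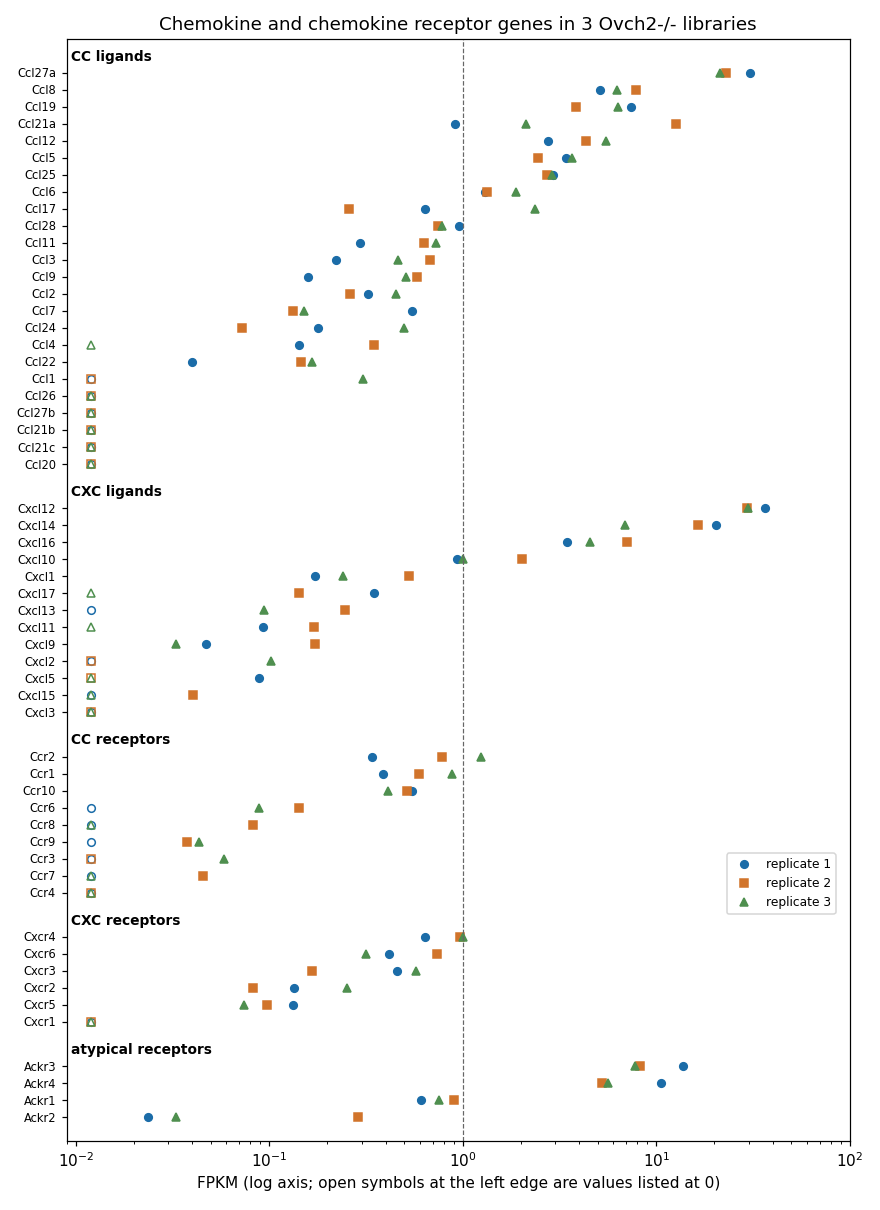
FPKM of 56 of the 57 members in each of the 3 libraries (log axis), grouped by class and ordered by mean; open symbols at the left edge are values listed at 0 and the dashed line is 1 FPKM. Cxcl12 and Ccl27a lie between 21.4 and 36.6 FPKM, while the means of all 15 classical receptors shown lie below the line.

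Cxcl12, the stromal ligand of CXCR4 and ACKR3 (NCBI gene 20315, mm10 chromosome 6 from 117168535 to 117181368, plus strand), was the most abundant member. It stood at 36.6, 29.5 and 29.8 FPKM in replicates 1, 2 and 3, or 32.0 ± 4.02 FPKM (SD, n = 3), rank 2804 of the table. Its libraries lay close together, with the highest in replicate 1. Ccl27a, a ligand of CCR10 best known from skin keratinocytes (gene 20301, chromosome 4 from 41769467 to 41774225, minus strand), stood at 30.6, 23.0 and 21.4 FPKM, or 25.0 ± 4.93 FPKM (SD, n = 3). The ranges of Cxcl12 and Ccl27a overlapped, so their order was not beyond the spread.

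Cxcl14, an epithelial chemokine whose signalling receptor is unsettled (gene 57266, chromosome 13 from 56288643 to 56296811, minus strand), stood at 20.4, 16.5 and 6.89 FPKM, or 14.6 ± 6.96 FPKM (SD, n = 3). Replicate 3 was low and the other libraries were close to each other. Its highest library was below the lowest of Ccl27a. Together Cxcl12, Ccl27a and Cxcl14 made up 72.9%, 58.3% and 58.5% of the summed ligand level of the family, or 63.2 ± 8.38% (SD, n = 3).

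The ligands of CCR7, which guides dendritic cells and lymphocytes to lymph nodes, were present at lower levels. Ccl19 (gene 24047, chromosome 4 from 42754525 to 42756365) stood at 7.43, 3.84 and 6.33 FPKM, or 5.86 ± 1.84 FPKM (SD, n = 3). Ccl21a (gene 18829, chromosome 4 from 42772860 to 42773991), typical of lymphatic endothelium, stood at 0.912, 12.7 and 2.13 FPKM, or 5.24 ± 6.47 FPKM (SD, n = 3). Replicate 2 was far above the others, and without it the mean of Ccl21a was 1.52 FPKM. Ccl25 (gene 20300, chromosome 8 from 4325205 to 4360020), the thymic and intestinal ligand of CCR9, was the steadiest detected member at 2.93, 2.74 and 2.91 FPKM, or 2.86 ± 0.108 FPKM (SD, n = 3). Its exons overlap those of Elavl1 on the opposite strand over 204 bases, 2.74% of their length, and Elavl1 stood at 12.5, 12.6 and 12.1 FPKM. Of the 11 ligands grouped here as homeostatic, 6 were detected, a share near the 53.7% of all genes. The summed level of the 11 was 99.8, 89.3 and 70.2 FPKM, which is 76.4 ± 6.19% of the sum over the 37 ligands of the family (SD, n = 3). Chemokines outside the 57, among them Cx3cl1 at a mean of 38.4 FPKM, are not in that sum and would lower the share.

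Inflammatory ligands that draw monocytes and T cells were present at a lower level. Ccl8 (gene 20307, chromosome 11 from 82115185 to 82116799), in mice an agonist of CCR8, stood at 5.15, 7.85 and 6.29 FPKM, or 6.43 ± 1.36 FPKM (SD, n = 3). Ccl12, a mouse ligand of CCR2 that attracts monocytes, stood at 2.77, 4.34 and 5.53 FPKM, or 4.21 ± 1.38 FPKM (SD, n = 3). Both were lowest in replicate 1. Ccl5, made by activated T cells and other cells, stood at 3.42, 2.45 and 3.65 FPKM, or 3.17 ± 0.635 FPKM (SD, n = 3). Cxcl10, the interferon-induced ligand of CXCR3, stood at 0.934, 2.02 and 1.0 FPKM, or 1.32 ± 0.605 FPKM (SD, n = 3), and was highest in replicate 2, without which its mean was 0.969 FPKM. Its exons overlap those of Art3 on the opposite strand over 133 bases, 5.91% of their length, and Art3 stood at 8.40, 7.83 and 6.59 FPKM. These 4 were the only detected members of the 13 ligands grouped as inflammatory, against 53.7% of all genes. Their group summed to 14.1, 19.1 and 18.8 FPKM, or 15.6 ± 3.63% of the ligand sum of the family (SD, n = 3).

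Cxcl16, a membrane-anchored ligand of CXCR6 that is also a scavenger receptor for oxidised lipid, stood at 3.48, 7.05 and 4.53 FPKM, or 5.02 ± 1.84 FPKM (SD, n = 3). Its exons overlap those of Zmynd15 on the opposite strand over 552 bases, 18.3% of its exon length, and Zmynd15 stood at 0.861, 1.32 and 1.27 FPKM. Whether the quantification used strand was not given in the sources used here. Ccl6, a ligand of mouse myeloid cells, stood at 1.30, 1.33 and 1.89 FPKM, or 1.51 ± 0.331 FPKM (SD, n = 3). Ccl17, the dendritic cell ligand of CCR4, stood at 0.637, 0.259 and 2.37 FPKM, or 1.09 ± 1.13 FPKM (SD, n = 3). Replicate 3 was high, and without it the mean was 0.448 FPKM, below the detection level. After correction for depth the values stood in the ratio of 3 to 1 to 8. Whole multiples of such ratios cannot be told apart by the ratio alone, so it is not itself a fragment count. The GENCODE transcript of Ccl17 is 514 bases long, and 1 fragment on it is worth more FPKM than on 1 kb. The Ccl17 values, that of replicate 3 included, therefore rest on few fragments.

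The ELR ligands were near the floor of the measurement. Cxcl1 stood at 0.173, 0.528 and 0.242 FPKM, Cxcl2 at 0, 0 and 0.102 FPKM, Cxcl5 at 0.0883, 0 and 0 FPKM and Cxcl15 at 0, 0.0406 and 0 FPKM, and Cxcl3 was listed at 0 in all libraries. Their summed level was 0.391 ± 0.159 FPKM (SD, n = 3), 0.348 ± 0.131% of the ligand sum. The 5 neutrophil markers in the table, of which Retnlg and Mpo were listed at 0 in all libraries, summed to 1.04, 1.04 and 1.33 FPKM.

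**Figure D2:**
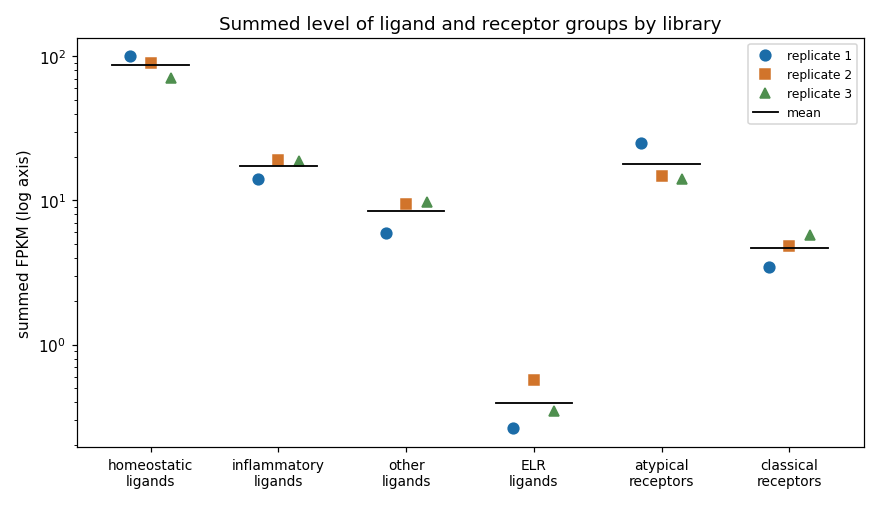
Summed FPKM (log axis) of 4 ligand groups and 2 receptor groups of the family, with a symbol for each of the 3 libraries and a line at their mean. Homeostatic ligands lie between 70.2 and 99.8 FPKM, ELR ligands between 0.262 and 0.569 FPKM, and atypical receptors above classical receptors in every library.

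Among the receptors of the family, RNA of the atypical class outweighed that of the classical class. Ackr3, which binds and clears CXCL12 and CXCL11 (gene 12778, chromosome 1 from 90203980 to 90215724, plus strand), stood at 13.7, 8.28 and 7.75 FPKM, or 9.90 ± 3.27 FPKM (SD, n = 3). Ackr4, a scavenger of CCL19, CCL21 and CCL25 (gene 252837, chromosome 9 from 104097682 to 104126643, minus strand), stood at 10.6, 5.24 and 5.63 FPKM, or 7.16 ± 3.0 FPKM (SD, n = 3). Both were highest in replicate 1, and without it their means were 8.01 and 5.43 FPKM. Exons of Ackr4 overlap those of Acad11 on the opposite strand over 479 bases, 8.90% of their length, and Acad11 stood at 20.6, 20.8 and 19.2 FPKM. Ackr1, the Duffy receptor of venules and red cells, stood at 0.607, 0.905 and 0.753 FPKM, and shares 361 exon bases with Cadm3 on the same strand. Ackr2, a scavenger of inflammatory CC chemokines, stood at 0.0237, 0.289 and 0.0331 FPKM.

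No classical receptor of the family reached a mean of 1 FPKM over the 3 libraries. The highest mean among the 16 was that of Cxcr4, the CXCL12 receptor, at 0.636, 0.970 and 1.0 FPKM, or 0.869 ± 0.202 FPKM (SD, n = 3). Ccr2, which marks inflammatory monocytes, stood at 0.339, 0.782 and 1.24 FPKM, the highest value of any of the 16 in a library. Without replicate 1, Ccr2 reached the mean of 1 FPKM. Ccr1, a receptor of monocytes and macrophages, stood at 0.389, 0.593 and 0.883 FPKM. Each of these 3 was lowest in replicate 1 and highest in replicate 3. The 9 macrophage markers, led by C1qa and C1qc, summed to 141, 199.5 and 215 FPKM and 7 of them were lowest in replicate 1; their part in the receptor values was not tested. In whole tissue, fewer cells of a type and less RNA per cell cannot be told apart.

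Of the lymphocyte receptors, Cxcr6 stood at 0.417, 0.740 and 0.318 FPKM, Ccr10 at 0.548, 0.514 and 0.412 FPKM, and Cxcr3 at 0.456, 0.167 and 0.573 FPKM. Cxcr5, the B cell follicle receptor, had a mean of 0.101 FPKM, and Cxcr2, the neutrophil receptor, one of 0.156 FPKM. Ccr3, Ccr6, Ccr7, Ccr8 and Ccr9 were listed at 0 in some libraries and did not exceed 0.142 FPKM in any. Ccr4 and Cxcr1 were listed at 0 in all. The 7 T cell markers in the table summed to 3.10, 2.79 and 4.02 FPKM and the 5 B and plasma cell markers to 0.536, 0.0822 and 0.271 FPKM, with Ms4a1 listed at 0 in all libraries. Of the 4 NK cell markers, Klrb1c stood at 2.35, 252 and 106 FPKM while Ncr1 stood at 0.306, 0.249 and 0.0711 FPKM.

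Summed over the class, classical receptors stood at 3.43, 4.82 and 5.79 FPKM, or 4.68 ± 1.19 FPKM (SD, n = 3). Atypical receptors stood at 24.9, 14.7 and 14.2 FPKM, or 17.9 ± 6.05 FPKM (SD, n = 3). The atypical sum was 7.26, 3.05 and 2.45 times the classical sum, so replicate 1 raised the ratio most. Without replicate 1 the atypical mean was 14.4 FPKM and the classical mean 5.31 FPKM. The 4 smooth muscle markers, led by Acta2 and Tagln, were likewise highest in replicate 1, at a sum of 624, 406 and 367 FPKM; their part in the Ackr3 and Ackr4 values was not tested.

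Textbook ligand and receptor pairs were then read side by side. Over the 3 libraries no classical receptor of the family reached a mean of 1 FPKM. The 30 signalling pairs could therefore differ in the ligand alone, which was detected in 12. Without replicate 1, Ccr2 reached that mean, as did its ligand Ccl12. Cxcl12 at a mean of 32.0 FPKM faced Cxcr4 at 0.869 FPKM, Ccl27a at 25.0 FPKM faced Ccr10 at 0.491 FPKM, and Ccl25 at 2.86 FPKM faced Ccr9 at 0.0270 FPKM. Ccr7 stood at a mean of 0.0151 FPKM beside its ligands Ccl19 and Ccl21a. Pairs with an atypical receptor were listed for Ackr3 and Ackr4 alone, the detected ones, so they are no comparison with the signalling pairs. The ligand was also detected in 4 of these 5: Cxcl12 with Ackr3, and Ccl19, Ccl21a and Ccl25 with Ackr4. RNA levels of a tissue do not show that a ligand meets its receptor, and the pairs were listed with these values known.

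**Figure D3:**
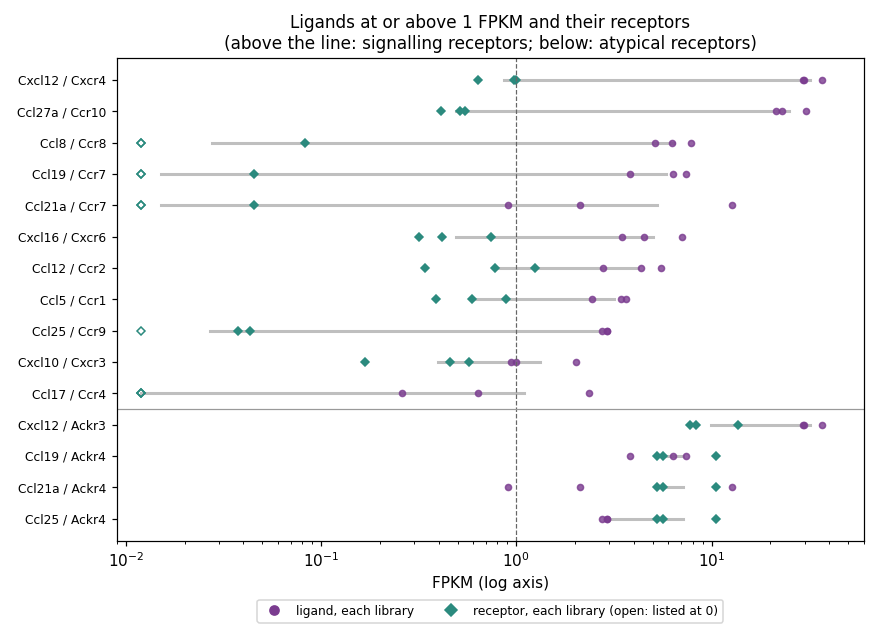
FPKM (log axis) of each ligand with a mean of at least 1 FPKM (circles, 1 per library) and of its receptor (diamonds, open where listed at 0), with a bar between the means. The receptor mean lies below the dashed line at 1 FPKM in the 11 signalling pairs shown and above it in the 4 atypical pairs, which were listed for detected receptors alone.

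Most detected members stayed within a 2-fold range between libraries, and 3 did not. Of the 15 detected members, 3 (20.0%) ranged at least 2-fold between their highest and lowest library on the FPKM + 1 scale, against 10.8% of the 13073 genes that reached the same mean. Ccl21a ranged 7.15-fold, Cxcl14 2.71-fold and Ccl17 2.68-fold on that scale, which understates the folds of low genes. Each stood apart from both others in a single library. Ccl21a was at least 2-fold above both others in replicate 2, as were 0.237% of genes, Cxcl14 at least 2-fold below both others in replicate 3, as were 0.153%, and Ccl17 at least 2-fold above both others in replicate 3, as were 0.314%. Ccl17 reached the mean of 1 FPKM only through replicate 3, so nothing is read from its count. With each library rescaled to a fixed total, Ccl17 no longer stood apart in that way.

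No detected member stood apart in replicate 1, where 4.07% of genes lay at least 2-fold below and 1.29% at least 2-fold above both others, and none was low in replicate 2, where 0.757% of genes were. With a pseudocount of 0.1 in place of 1, the count of wide members was 6, with Ackr4, Cxcl10 and Cxcl16 added, and Ccl21a was then also low in replicate 1. The 5 blood endothelium markers, led by Pecam1 and Cdh5, summed to 12.2, 30.3 and 17.5 FPKM and all were highest in replicate 2, where Ccl21a was high. Of the lymphatic endothelium markers, Lyve1 stood at 0.346, 0.811 and 0.594 FPKM, Flt4 at 0.769, 1.57 and 0.632 FPKM and Prox1 at 0, 0.0198 and 0.0453 FPKM, while Pdpn, also made by epithelial and stromal cells, stood at 19.7, 49.8 and 52.4 FPKM. The part of these cell types in the Ccl21a value was not tested. The dendritic cell markers, led by Zbtb46 and Itgax, summed to 2.62, 5.30 and 3.36 FPKM while Ccl17 was highest in replicate 3; the part of these cells in the Ccl17 value was not tested.

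**Figure D4:**
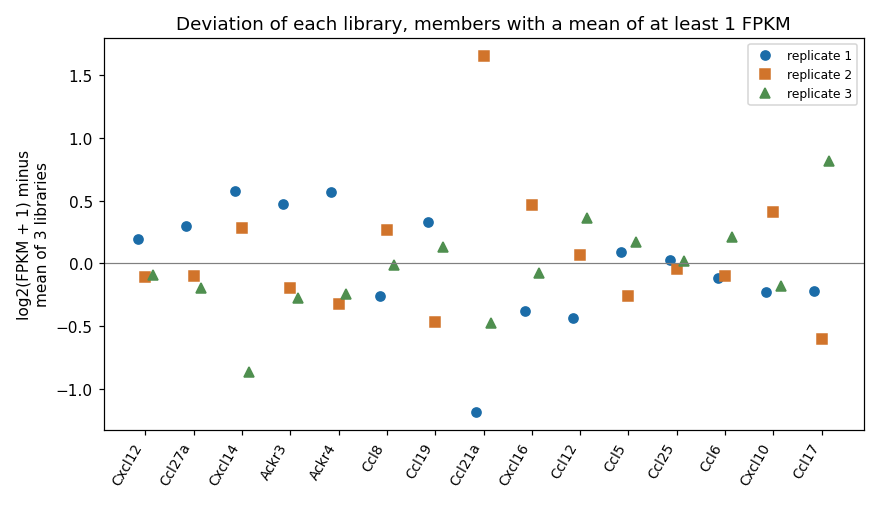
Deviation of each library from the 3-library mean on the log2(FPKM + 1) scale for the 15 detected members, ordered by mean. Ccl21a is high in replicate 2, Cxcl14 low and Ccl17 high in replicate 3, and Ackr3 and Ackr4 are highest in replicate 1.

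Some of the low members had values in ratios of small whole numbers. Of the 21 members below 1 FPKM that were nonzero in every library, 13 had values in ratios of whole numbers up to 10, within 0.4%, once the libraries were put on a common depth. The same share over all genes was not computed, so the count is not read as a trait of the members. Ackr2 stood in the ratio of 1 to 10 to 1, Ccl22, a dendritic ligand of CCR4, in the ratio of 1 to 3 to 3, and Ccl2, the main monocyte ligand of CCR2, in the ratio of 3 to 2 to 3. Ccl28, a mucosal ligand of CCR10, had the highest mean of the undetected ligands at 0.829 ± 0.112 FPKM (SD, n = 3). Ccl11, Ccl3, Ccl9 and Ccl7 exceeded 0.5 FPKM in at least 1 library, with means from 0.276 to 0.551 FPKM. Ccl24 and the interferon-induced Cxcl9 had means of 0.249 and 0.0844 FPKM.

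Among the ligands listed at 0 in some libraries were also Ccl1, Ccl4, Cxcl11, Cxcl13 and Cxcl17, whose means ran from 0.0875 to 0.164 FPKM. Cxcl11, which RefSeq annotates as a transcribed pseudogene in this build, overlaps Gm2673 on the opposite strand over 41.7% of its exon length. Ccl20, Ccl26 and the copies Ccl21b, Ccl21c and Ccl27b were listed at 0 in all libraries. The members just inside the detection level were Ccl17 at a mean of 1.09 FPKM and Cxcl10 at 1.32 FPKM, and those just outside were Cxcr4 at 0.869 FPKM and Ccl28 at 0.829 FPKM.

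Members that lie together on a chromosome did not all share a level. With neighbours joined when their starts were less than 500 kb apart, 36 of 56 placed members fell into 9 clusters. The chromosome 5 cluster of ELR ligands, from 90759298 to 90905938, held 5 members and 0 detected. The receptor cluster on chromosome 9, which includes Ccr1, Ccr2 and Cxcr6, held 6 members and 0 detected. On chromosome 11, Ccl12 and Ccl8 were detected in a cluster of 6 whose other members Ccl1, Ccl2, Ccl7 and Ccl11 were not, and Ccl5 and Ccl6 in a cluster of 5 with Ccl3, Ccl4 and Ccl9. On chromosome 4, Ccl27a, Ccl19 and Ccl21a were detected beside their copies Ccl27b and Ccl21b. Outside clusters, 6 of 20 members were detected, Cxcl12, Cxcl14, Cxcl16, Ccl25, Ackr3 and Ackr4.

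Promoters, the 250 bases before and 50 after each gene's start in RefSeq (GRCm38.p6), were matched for 41 members. The letters GGNNTTTCC, a form of the site bound by NF-kappaB, were searched on both strands and occurred in promoters of 9 of the 41 members (22.0%), against 6.67% of 18094 genes. The 9 were Ackr4, Ccl9, Ccl20, Ccr3, Cxcl1, Cxcl2, Cxcl3, Cxcl9 and Cxcl10. Of these, 2 were detected, Ackr4 and Cxcl10. That is 2 of the 13 detected and 7 of the 28 undetected members with a promoter, and a link between letters and level was not tested. Promoters of Cxcl1 (chr5:90890995-90891294, plus strand) and Cxcl2 (chr5:90903649-90903948, plus strand) are shown as low members that each hold a pair of matches, and that of Cxcl12 (chr6:117168285-117168584, plus strand) as the most abundant member, with no match. Capitals mark the letters.
Cxcl1: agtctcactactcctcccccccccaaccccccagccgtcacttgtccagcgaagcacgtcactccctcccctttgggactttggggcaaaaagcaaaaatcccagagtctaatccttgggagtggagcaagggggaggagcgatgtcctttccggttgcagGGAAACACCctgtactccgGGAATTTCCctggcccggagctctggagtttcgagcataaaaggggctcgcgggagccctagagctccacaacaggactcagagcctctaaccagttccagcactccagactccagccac
Cxcl2: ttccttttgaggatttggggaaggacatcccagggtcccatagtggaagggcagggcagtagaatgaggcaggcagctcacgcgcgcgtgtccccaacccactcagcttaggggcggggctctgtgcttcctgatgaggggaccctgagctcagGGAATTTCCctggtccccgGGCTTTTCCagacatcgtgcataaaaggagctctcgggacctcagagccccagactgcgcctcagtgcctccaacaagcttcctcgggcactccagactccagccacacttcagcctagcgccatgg
Cxcl12: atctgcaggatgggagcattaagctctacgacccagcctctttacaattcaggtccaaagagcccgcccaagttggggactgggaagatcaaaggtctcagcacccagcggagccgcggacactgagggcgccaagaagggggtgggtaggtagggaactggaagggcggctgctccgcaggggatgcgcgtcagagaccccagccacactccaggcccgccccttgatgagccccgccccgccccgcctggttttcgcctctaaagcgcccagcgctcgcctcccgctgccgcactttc

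The matches began 89 and 70 bases before the start in Cxcl1 and 96 and 77 bases before it in Cxcl2, and a match in Cxcl3 began 72 bases before. The letters GAAANNGAA, found in interferon response elements, occurred in 8 of the 41 members (19.5%), against 9.22% of genes. These were Ccl1, Ccl3, Ccl19, Ccr2, Cxcl9, Cxcl10, Cxcl14 and Cxcr1, or 3 of 13 detected and 5 of 28 undetected members. The letters CCGGAAG, found in ETS factor sites, occurred in 1 of the 41 (2.44%), Ccl27a, against 12.8% of genes. A match of letters is a description and not a bound site. Of the inducers that act through these pathways, Il6 and Ifng were listed at 0 in all libraries, Tnf stood at 0.0915, 0.485 and 0.370 FPKM and Il1b at 0.172, 0.628 and 0.798 FPKM. The highest means in this list were those of Nfkbia at 37.9 FPKM and Rela at 35.3 FPKM. Of its 19 genes 12 were detected, a share near the 53.7% of all genes.

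Of 17 other genes of the chemokine system outside the 57, 11 were detected, beside 53.7% of all genes. Cx3cl1, the membrane-bound fractalkine, stood at 56.7, 30.3 and 28.3 FPKM, above Cxcl12 in replicates 1 and 2 and below it in replicate 3, so their order was not beyond the spread. Its receptor Cx3cr1, which marks the phagocytes of the duct, stood at 3.90, 6.99 and 6.78 FPKM, above every classical receptor of the family. The highest mean in this list was that of Cmtm6, a chemokine-like factor family gene that stabilises PD-L1, at 41.3 FPKM. Cmtm2a was listed at 0 in replicate 1 and stood at 1.96 and 1.63 FPKM in replicates 2 and 3. Platelet factor 4, Pf4, stood at 6.81, 4.16 and 5.95 FPKM.

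Genes that relay or modify chemokine signals were read beside the same 53.7% of all genes. Of 24 signal relay genes measured, 17 were detected, led by the G protein subunits Gng5 at a mean of 611 FPKM and Gnb2 at 223 FPKM. Those not detected were Rgs1, Rgs18, Pik3cg, Pik3r5, Plcb2, Dock2 and Vav1, with means from 0.0804 to 0.940 FPKM. Arrb2, the beta-arrestin 2 gene, stood at 8.68, 34.4 and 33.8 FPKM and was low in replicate 1. Of 16 genes that trim or present chemokines, 15 were detected, led by the heparan sulfate carriers Sdc1 at a mean of 127 FPKM and Gpc1 at 64.1 FPKM. Dpp4, the dipeptidyl peptidase that inactivates CXCL12, stood at 28.8, 16.9 and 18.0 FPKM. Cx3cr1, Pf4, Tnf, Il1b, Dpp4 and Arrb2 were chosen after their values were seen.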

How the data were processed

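RNA-seq was measured in 3 libraries of 1 labelled group. TRIzol extraction and a stranded TruSeq mRNA kit were used, per the labels' protocols. The authors deposited normalized FPKM values for 24346 genes, per the file headers; TopHat2 2.1.1, Cufflinks 2.2.1 and mm10 come from the submitters' processing notes. The annotation, strand setting and scaling were not given in the sources used here.

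Means, SDs, ranks, sums and counts were computed from the deposited values. Folds used FPKM + 1 and a mean of at least 1 FPKM. No count model was used, since FPKM values are not counts, and no group test, since there is 1 group. Depth was read from the steps between low values (below 0.3 FPKM), and 1 fragment was worth 1.22 and 1.396 times as much in replicates 2 and 3 as in replicate 1. The fold and step calculations were tested on simulated data. Gene IDs of all 57 members matched RefSeq (GRCm38.p6, mm10 coordinates, 1-based). Cysteine motifs came from GENCODE vM21 coding sequences in place of RefSeq proteins.

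Every member with a mean of at least 1 FPKM was named with each library's value. Lower members were named in groups, as were 2 leading genes of each other list used and those listed at 0 in 1 library and above 1 FPKM in another. The members and lists, and the ligand pairs and roles, were chosen with earlier results of these data known. Python 3.11.15, numpy 2.4.6 and pandas 2.3.3 were used. Values of 1 member are not reported here, though it is counted in the totals and sums.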

Additional observations from a re-analysis of the deposited data

How the results depend on the processing

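The number of detected members was 9 at a threshold of 5 FPKM and 22 at 0.5 FPKM, and ran from 14 to 16 with 1 replicate left out. It was 16 without replicate 1, when Ccr2, a classical receptor, reached the mean of 1 FPKM. The number with a range of at least 2-fold was 6 with a pseudocount of 0.1 and ran from 1 to 3 with 1 replicate left out. Without replicate 3 it was 1, because Cxcl14 and Ccl17 moved in that library, and without replicate 2 it was 2, because Ccl21a moved there. With a pseudocount of 0.1, 1 member was low in replicate 1 (Ccl21a) and 1 low in replicate 2 (Ccl17). The number of members high in replicate 3 fell from 1 (Ccl17) to 0 when a mean of at least 5 FPKM was required, which Ccl17 does not reach, and to 0 with a fixed total. Under both scalings the levels of all 15 detected members and the summed levels moved by less than 1 SD. A mean of 3 libraries cannot move by 1 SD when 1 is left out, so leaving libraries out is no check of stability there. The share of the leading ligands ran from 58.4% to 65.7%, the mean of Ccl21a was 1.52 FPKM without replicate 2, and that of Ccl17 0.448 FPKM without replicate 3. No paired analysis was possible because there is 1 group. Levels under about 0.3 FPKM rest on few fragments, so their order is not informative. On short transcripts, such as that of Ccl17 at 514 bases, higher levels can also rest on few fragments.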
